A study of Harpegnathos saltator with 37 samples.

Results

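Gene expression was compared between the central brains of dueling females and of workers of the ant Harpegnathos saltator, both collected on day 10 after isolation. The 2 groups were found by their labels and held 5 dueler and 4 worker libraries, 9 of the 37 libraries of the series, and no measured value chose them. Per the labels, callow females 5 days old were taken from their colonies, and nests of 25 such females and 3 males were set up with neither a queen nor gamergates, and duels were watched morning and evening in the following weeks. The duelers are labelled as dueling gamergates and the day 10 workers as workers. No genotype, drug or other treatment separates the groups, which shared the age, the isolation and the sequencing run (batch 2). The labels give neither the nest of a library, whether it held 1 brain or several, nor the outcome of the duels that an ant fought. Spread between these 9 libraries may therefore be technical as well as biological. Reported limma p-values measure only spread between libraries of a group, estimated over all 37 libraries unless stated. Permutation p-values rest on these 9 libraries alone. The other groups, used to estimate the spread of each gene and to set the day 10 values beside later ones, were 5 gamergates and 4 workers at day 20, 6 dominant gamergates and 9 hunting workers at day 120, and 4 late pupae.

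When a colony of this species loses its reproductive females, workers begin ritual duels with their antennae. Winners activate their ovaries and become gamergates, which mate, lay eggs and live longer, while the others go on to hunt and tend brood. The change involves the insulin-like peptides and the neuropeptide corazonin of the brain, together with juvenile hormone and ecdysteroids, and storage proteins of the fat body such as hexamerins and vitellogenin follow reproductive state in social insects.

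Each gene was measured as FPKM, fragments per kilobase of transcript and per unit of library size, in polyadenylated RNA. Depth was 19.66 to 24.77 M reads in duelers and 19.21 to 20.84 M in workers, with 9107 to 9219 genes at 1 FPKM or more in a dueler library and 9128 to 9304 in a worker library. Of 9 neuronal markers looked for, 8 had a symbol, and all 8 were above 0 in all 9 libraries, with a summed level of 678 to 737 FPKM in duelers and 726 to 908 FPKM in workers. Of 8 glial markers looked for, 5 had a symbol: repo, moody, Gs2, Gli and axo. These were also above 0 in all 9, at 545 to 623 FPKM in duelers and 509 to 751 FPKM in workers. The neuronal and glial markers with a symbol were thus present. That measure does not set brain apart, as the 9 muscle and 2 haemocyte markers with a symbol were above 0 in all 9 libraries too. In bulk tissue, fewer cells of a type and less RNA per cell cannot be told apart.

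The comparison asked how the brain differs between ants that duel and ants of the same age and isolation that do not. Of 9986 genes tested, 1 rose and 1 fell in duelers at an adjusted p under 0.05, which is 0.02% of the genes. Unadjusted p-values under 0.05 were reached by 547 genes (5.48%), 309 (3.09%) with higher and 238 (2.38%) with lower values in duelers. That count was 221 without worker 3, 1479 without worker 1, 1671 without the 3 libraries with high muscle genes (dueler 4 and workers 1 and 3), 2128 with array weights and 2770 under TPM scaling, so it is no steady measure of the difference. Every dueler was above every worker in 148 genes (1.48%) and below every worker in 102 genes (1.02%). The typical difference was small. The median log2 difference over all genes was -0.01, 80.5% of genes lay within 1.2-fold and 97.3% within 1.5-fold, and the median standard error of a log2 difference was 0.16. More than 2-fold higher means in duelers were found in 10 genes (0.1%), and more than 2-fold lower means in 64 genes (0.641%).

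**Figure D1:**
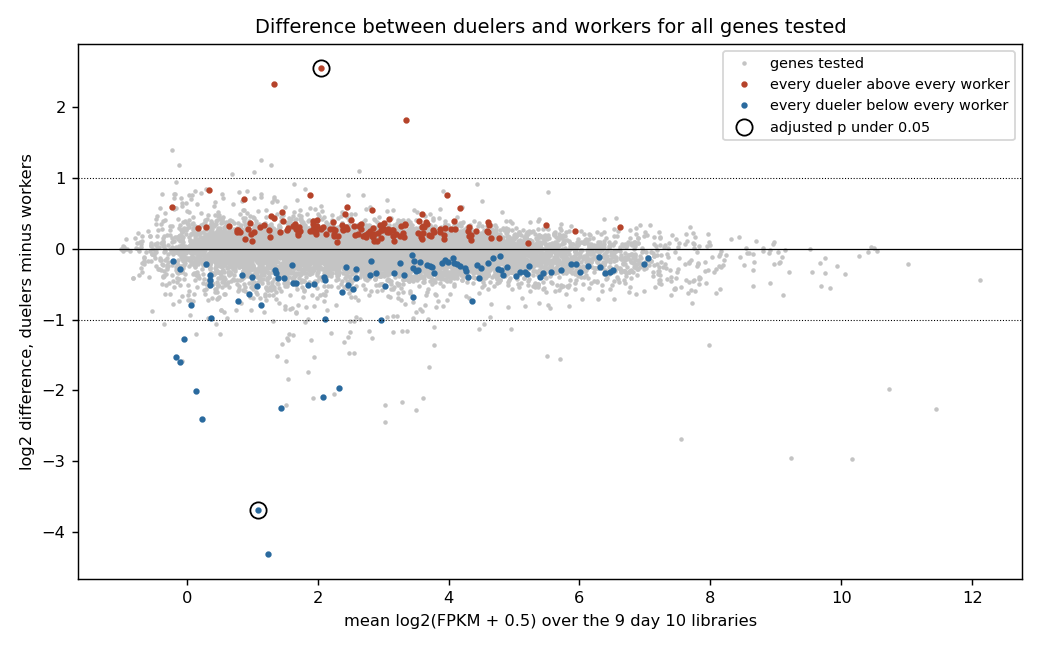
Log2 difference, duelers minus workers, against the mean level of each of the 9986 genes tested, as log2(FPKM + 0.5). Coloured points are the 148 and 102 genes whose groups did not overlap, circles mark the 2 called genes, and dotted lines mark 2-fold. Most large differences are grey, which means that the 2 groups of libraries overlapped.

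CPR1 (LOC105180609) rose in duelers. The symbol places it among cuticle genes, which encode chitin-binding proteins of the exoskeleton, but the files do not name its product. It stood at 5.40, 14.9, 7.91, 8.92 and 8.29 FPKM in duelers 1 to 5, against 0.582, 0.913, 1.80 and 1.18 FPKM in workers 1 to 4. The lowest dueler lay well above the highest worker, and dueler 2 was the highest library. These levels rested on 85 to 252 reads in duelers and 8 to 20 reads in workers. The log2 difference was 2.55 (SE 0.41, limma adjusted p = 0.00282).

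LOC105189612, to which the reference table gives no name, fell in duelers. Levels were 0.293, 0.381, 0.210, 0.102 and 0 FPKM in duelers 1 to 5, against 2.21, 4.06, 33.6 and 13.8 FPKM in workers 1 to 4. The duelers had at most 7 reads each, and the 0 of dueler 5 allows up to 3 reads or 0.197 FPKM. Workers were all above all duelers but were spread widely among themselves, with worker 3 the highest. The log2 difference was -3.69 (SE 0.59, adjusted p = 0.00282). Without worker replicate 3 it was -3.04 and the gene was not called (adjusted p = 0.0672), and in a fit of the 9 libraries alone it was not called either (0.216).

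Both calls were also lost, with 0 genes called, in 3 fits that left out libraries standing apart in other genes. Leaving out dueler 4 and workers 1 and 3, the 3 with high muscle genes, gave CPR1 a log2 difference of 2.55 (adjusted p = 0.197, 4 duelers and 2 workers). Leaving out duelers 2 and 5 and worker 4, which were low in the apidermin gene apd-3l, gave 2.35 (0.122, 3 and 3). Leaving out dueler 3 and worker 4, the ends of the first principal component, gave 2.62 (0.0625, 4 and 3). In the same 3 fits LOC105189612 had log2 differences of -3.52, -3.43 and -3.47 (adjusted p = 0.197, 0.122 and 0.104).

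Some other genes, named after their values were seen, separated the groups without passing the test over all genes. LOC105185160 was at 0.0845, 0.147, 0.0506, 0.046 and 0.321 FPKM in duelers 1 to 5, against 2.53, 16.4, 19.7 and 22.4 FPKM in workers 1 to 4. With 4 to 27 reads in duelers and 209 to 1716 in workers, the groups lay far apart, and worker 1 was the lowest worker. The log2 difference of -4.32 was the most negative of all genes tested (SE 1.13, adjusted p = 0.428), and the gene was called in the fit of the 9 libraries alone (SE 0.53, adjusted p = 0.0368), in which its wide spread in other groups does not enter.

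LOC112588140 was higher in all duelers, at 3.93, 4.72, 3.52, 3.93 and 8.40 FPKM, against 1.12, 0.415, 0.277 and 0.467 FPKM in workers. Dueler 5 stood above the other duelers and worker 1 above the other workers, with no overlap. Its log2 difference was 2.33 (SE 0.54, adjusted p = 0.245), and it too was called from the 9 libraries alone (0.0368). LOC105191238 had no more than 3 reads in any dueler, with 0.0689, 0, 0.247, 0.12 and 0.0775 FPKM, against 2.60, 0.495, 3.42 and 2.22 FPKM in workers. Its log2 difference of -2.003 did not pass the threshold (SE 0.39, adjusted p = 0.0507). It passed without worker 2 (0.0035), with array weights (0.0236) and with a pseudocount of 1 (0.0259), and over the other settings its adjusted p reached 0.743 without worker 3 and 0.847 without the libraries low in apd-3l. LOC105181820 followed the same order, at 0.543 to 1.42 FPKM in duelers and 3.16 to 11.9 FPKM in workers (log2 difference -2.25, SE 0.50, adjusted p = 0.203).

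Hexamerins are storage proteins that insects make mainly in the fat body and draw on for growth and egg production, and 2 of their genes were lower in every dueler. Hex70c (LOC105185159) was at 0.0167, 0.0467, 0.0801, 0.0292 and 0.169 FPKM in duelers, against 0.383, 0.901, 2.16 and 2.13 FPKM in workers. Hex70a (LOC105185161) was at 0, 0.0287, 0.0277, 0.209 and 0.0521 FPKM in duelers, against 0.230, 1.15, 2.13 and 1.68 FPKM in workers. Workers 3 and 4 were the highest in both genes and worker 1 the lowest of the workers, so that dueler 4 came close to worker 1 in Hex70a. The log2 differences were -1.60 for Hex70c (SE 0.51, adjusted p = 0.761) and -1.54 for Hex70a (SE 0.78, adjusted p = 0.761). Reads of similar hexamerin genes may have been divided between them in counting. Of the 13 fat body and yolk genes tested 0 were called, and these 2 were the 2 with no overlap (2 of 13, against 1.02% of all genes in that direction). The summed level of the 6 fat body markers with a symbol was 2047 to 2465 FPKM in duelers and 2423 to 2714 FPKM in workers. Its part in the hexamerin values was not tested.

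**Figure D2:**
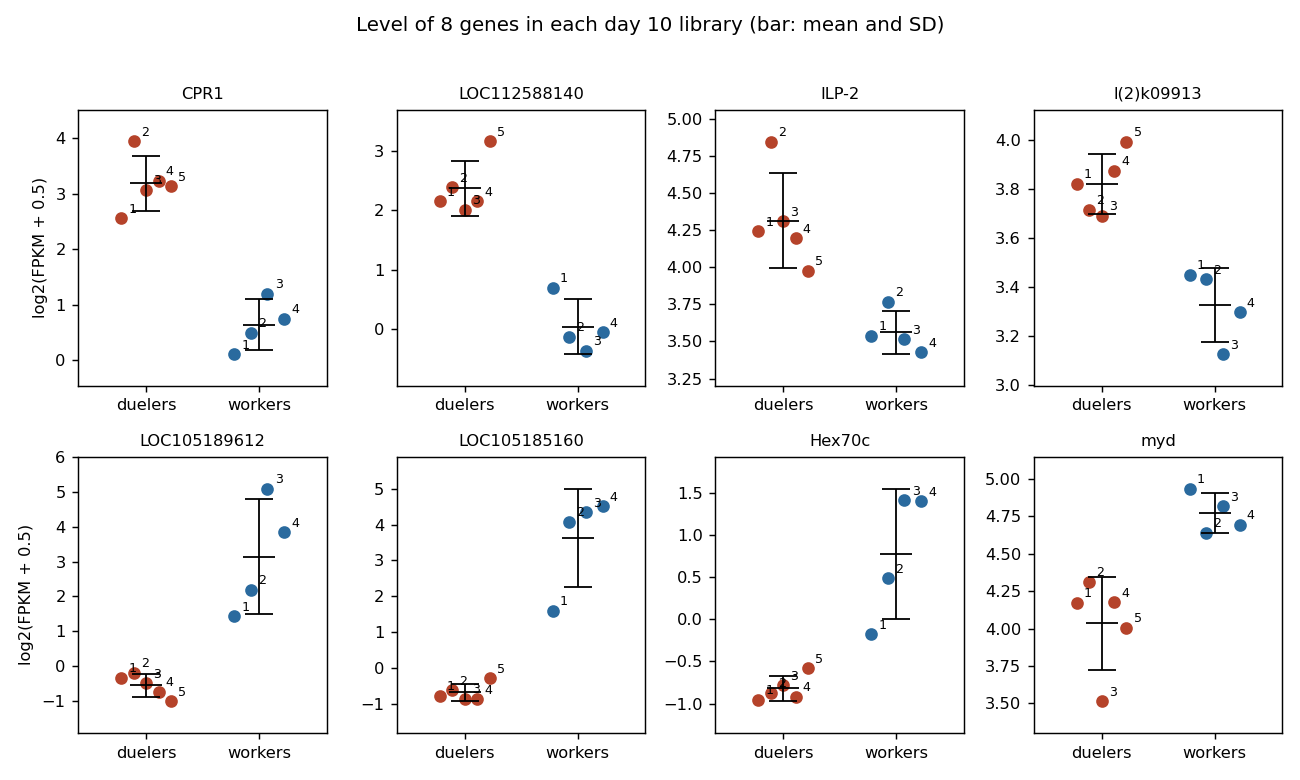
Level of 8 genes as log2(FPKM + 0.5) in each library, numbered by replicate, with the mean and SD of each group. In CPR1, LOC112588140, ILP-2 and l(2)k09913 all 5 duelers sit above all 4 workers, and in LOC105189612, LOC105185160, Hex70c and myd all 5 sit below, with a wide spread among workers in the first 3 of these.

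Among genes with a symbol, l(2)k09913 had the lowest p-value of those that were higher in every dueler after CPR1. It was at 13.6, 12.6, 12.4, 14.2 and 15.4 FPKM in duelers, against 10.4, 10.3, 8.23 and 9.33 FPKM in workers (log2 difference 0.49, SE 0.13, adjusted p = 0.515). Pgm2a, a phosphoglucomutase gene, was at 5.06 to 6.72 FPKM in duelers and 3.90 to 4.60 FPKM in workers (0.41, SE 0.14). dnk, which encodes a deoxyribonucleoside kinase, was at 2.76 to 3.16 FPKM in duelers and 2.02 to 2.52 FPKM in workers (0.35, SE 0.12). Iru, a ubiquitin ligase gene, was at 14.95 to 16.4 FPKM in duelers and 11.3 to 13.2 FPKM in workers (0.29, SE 0.09). None of these passed the test over all genes, with adjusted p = 0.761 for the last 3. AP-1sigma, Not11, sea, TORIP, Snx16, Rcd5 and udt were the others that the naming rule gave in this direction.

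In the opposite direction myd came first. It was at 17.5, 19.4, 10.9, 17.6 and 15.6 FPKM in duelers, against 30.1, 24.5, 27.7 and 25.4 FPKM in workers, so that the highest dueler was below the lowest worker and dueler 3 was lowest (log2 difference -0.74, SE 0.19, adjusted p = 0.428). Utx, which in Drosophila encodes a demethylase of histone H3 lysine residues marked by Polycomb, was at 7.79, 7.44, 10.8, 7.11 and 9.15 FPKM in duelers, against 12.2, 14.5, 13.2 and 15.3 FPKM in workers. Its difference was -0.69 (SE 0.23, adjusted p = 0.761). FoxP, a forkhead transcription factor gene expressed in neurons, was at 10.7 to 12.8 FPKM in duelers and 14.2 to 15.9 FPKM in workers (-0.34, SE 0.16, adjusted p = 0.761). siz, which in Drosophila encodes an exchange factor for Arf GTPases, was at 25.6 to 31.2 FPKM in duelers and 33.3 to 42.0 FPKM in workers (-0.38, SE 0.13), and Apf at 2.18 to 3.34 FPKM and 3.47 to 5.37 FPKM (-0.49, SE 0.14, adjusted p = 0.738). TpnT, Lsm11, RNaseZ, Atg18a, Flo2 and Pino were also in this set.

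Utx was 1 of 35 chromatin genes tested, of which 0 were called, with a median log2 difference of -0.05 beside -0.01 for all genes, and of 0.01 relative to all genes without dueler 4. Beside Utx, another 2 of the 35 had unadjusted limma p-values under 0.05, as had 5.48% of all genes in either direction. CoRest, a corepressor gene, was at 6.96 to 8.33 FPKM in duelers and 5.60 to 7.27 FPKM in workers (0.25, SE 0.10, adjusted p = 0.761). MBD-like, which in Drosophila encodes a subunit of a nucleosome remodelling complex, was at 10.1 to 18.7 FPKM in duelers and 14.2 to 23.4 FPKM in workers (-0.42, SE 0.18, adjusted p = 0.761). Both overlapped between the groups.

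Of the 13 neuropeptide genes tested 0 were called, and their median log2 difference was 0.19, or 0.07 relative to all genes without worker 1. ILP-2 (LOC105188195), which encodes a peptide of the insulin family, was at 18.4, 28.3, 19.3, 17.8 and 15.2 FPKM in duelers, against 11.1, 13.1, 10.9 and 10.2 FPKM in workers. All duelers were above all workers, with dueler 2 the highest library and dueler 5 nearest to the workers (log2 difference 0.75, SE 0.29, adjusted p = 0.761). Corazonin, Crz, did not separate the groups. It was at 32.8, 39.6, 21.5, 49.6 and 40.9 FPKM in duelers, against 30.3, 62.3, 69.6 and 125 FPKM in workers, where worker 1 lay among the duelers and worker 4 far above all others (-0.83, SE 0.47, adjusted p = 0.761). CCHa1, another brain and gut peptide gene, repeated this order in workers, at 2.64, 6.42, 7.29 and 14.6 FPKM, with 3.31 to 5.34 FPKM in duelers (-0.59, SE 0.33, adjusted p = 0.761).

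Downstream of insulin-like peptides, 0 of 22 insulin and TOR genes were called and their median was -0.02. Akt, the kinase that relays the insulin receptor signal, was the member with no overlap (1 of 22, against 1.48% of all genes in that direction). It was at 6.20 to 6.98 FPKM in duelers and 5.25 to 6.20 FPKM in workers, and its groups nearly touched (0.19, SE 0.09, adjusted p = 0.761). slif, a transporter of cationic amino acids upstream of TOR in Drosophila, was at 2.06 to 2.99 FPKM in duelers and 1.55 to 2.59 FPKM in workers (0.32, SE 0.16, adjusted p = 0.761). Thor, the translational repressor 4E-BP, was at 75.6 to 118 FPKM in duelers and 93.9 to 138 FPKM in workers (-0.34, SE 0.18, adjusted p = 0.761).

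Of 16 juvenile hormone and ecdysone genes 0 were called, with a median of -0.15, or -0.05 relative to all genes without worker 1. jhamt, the gene of a methyltransferase of juvenile hormone synthesis, was at 1.86, 0.0696, 4.55, 1.47 and 3.66 FPKM in duelers, against 0.0857, 7.60, 0.0398 and 0.0232 FPKM in workers. Dueler 2 and workers 1, 3 and 4 were near 0, and worker 2 was the highest library. Kr-h1, whose product carries the juvenile hormone signal into transcription, stayed low, at 0.0114 to 0.234 FPKM in duelers and 0.0146 to 0.490 FPKM in workers. The receptor genes were steadier, with Ecr at 5.58 to 6.09 FPKM in duelers and 5.45 to 8.50 FPKM in workers, and usp at 25.0 to 41.1 FPKM in duelers and 28.8 to 34.8 FPKM in workers. Neither passed the test (adjusted p = 0.766 for Ecr and 0.968 for usp).

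The list of activity-regulated genes gave 0 calls among 9 tested (median -0.18, or -0.09 relative to all genes without dueler 4). It holds the regulators CrebB, Crtc and Mef2 beside Hr38, kay and Jra, so its median is not one of induced genes alone. Hr38 was at 4.03, 3.44, 7.45, 3.03 and 5.52 FPKM in duelers, against 5.98, 3.94, 6.25 and 5.17 FPKM in workers, so the most and the least expressing libraries were both duelers (adjusted p = 0.839). The AP-1 genes kay and Jra likewise overlapped, with kay at 6.60 to 7.92 FPKM in duelers and 5.66 to 8.56 FPKM in workers, and Jra at 5.59 to 9.40 FPKM in duelers and 6.76 to 10.6 FPKM in workers.

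Synaptic, ion channel, axon guidance and biogenic amine lists leaned to lower values in duelers without a call. Neuropeptides (median 0.19, 8 of 13 means higher) and peptide receptors (0.03, 5 of 8 higher) did not. Lower means were found in 24 of 27 synaptic genes (median -0.11), 28 of 35 ion channels and receptors (-0.16), 21 of 24 axon guidance and adhesion genes (-0.13) and 15 of 21 biogenic amine genes (-0.11), beside 5117 of all 9986 genes. Scaling to TPM, which moved the median of all genes to 0.27, turned these 4 medians positive, while relative to all genes they stayed below. These medians moved with single libraries: relative to all genes, the ion channel median was -0.05 without dueler 4 and -0.26 without dueler 3, the synaptic median -0.04 and -0.19, and the axon guidance median -0.08 and -0.27, in the same order. The biogenic amine median was -0.03 without worker 3 and -0.21 without dueler 3. Rab3, a synaptic vesicle GTPase gene, was at 88.0 to 106 FPKM in duelers and 99.4 to 147 FPKM in workers (-0.31, SE 0.20, adjusted p = 0.761). slo, a calcium-activated potassium channel gene, was at 38.4, 36.3, 69.3, 34.5 and 55.7 FPKM in duelers, against 60.5, 57.4, 63.3 and 57.3 FPKM in workers. Dueler 3 was above all workers and dueler 5 just below them, with the other 3 duelers far lower (-0.40, SE 0.24, adjusted p = 0.761).

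Of the 16 mushroom body and learning genes tested 0 were called, and 11 had lower means in duelers (median -0.08). Relative to all genes this median was -0.01 without dueler 4 and -0.17 without dueler 3. orb2, a translational regulator needed for long-term memory in Drosophila, was at 75.4, 75.4, 88.7, 75.7 and 73.6 FPKM in duelers, against 81.3, 90.9, 113 and 117 FPKM in workers, and dueler 3 alone reached into the worker range (-0.36, SE 0.25, adjusted p = 0.766). for, the cyclic GMP-dependent kinase gene known from foraging behaviour, was at 12.8 FPKM in dueler 3 and 13.4 FPKM in dueler 5, while the other duelers had 7.46 to 8.12 FPKM and workers 6.43 to 8.77 FPKM (0.29, SE 0.17, adjusted p = 0.761). Of the biogenic amine list, Tbh, whose enzyme makes octopamine, was at 3.47 to 5.15 FPKM in duelers and 3.18 to 3.89 FPKM in workers (0.31, SE 0.20, adjusted p = 0.761). DopEcR of the same list, a receptor for dopamine and ecdysteroids, was at 62.9 to 75.05 FPKM in duelers and 73.1 to 98.2 FPKM in workers (-0.28, SE 0.17, adjusted p = 0.761). Obp10, an odorant binding protein gene of the chemosensory list, was among the most abundant members of any list. It was at 541 to 1016 FPKM in duelers and 795 to 1537 FPKM in workers (-0.56, SE 0.28, adjusted p = 0.761). None of these passed.

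Ribosomal, oxidative phosphorylation and proteasome genes had lower medians in duelers, and the libraries differed in them more than the castes. Of 59 cytosolic ribosomal protein genes 58 had a lower mean in duelers, with a median of -0.49 and 0 calls. Unadjusted limma p-values under 0.05 were reached by 13 of them, all lower, beside 2.38% of all genes in that direction. RpS27A was at 74.2, 84.4, 38.6, 81.9 and 45.6 FPKM in duelers, against 52.2, 98.5, 116 and 177 FPKM in workers. Duelers 3 and 5 and worker 1 were low, worker 4 was highest, and the other 5 libraries lay between (-0.71, SE 0.32, adjusted p = 0.761). RpL31 was at 68.1 to 141 FPKM in duelers and 102 to 250 FPKM in workers, and RpL10Ab at 46.4 to 84.1 FPKM in duelers and 65.2 to 118 FPKM in workers, again with worker 4 highest in both.

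The mitochondrial and proteasome genes followed. Of 55 oxidative phosphorylation genes 49 had lower means in duelers (median -0.26), as had 60 of 70 mitochondrial ribosomal proteins (-0.14) and 26 of 31 proteasome subunits (-0.18), all with 0 calls. Under TPM, which moved the median of all genes to 0.27, these 3 medians were 0.02, 0.14 and 0.10. Relative to all genes they stayed at -0.25, -0.13 and -0.17. The cytosolic ribosomal median under TPM was -0.20, or -0.47 relative to all genes. Under the reported scaling and relative to all genes, the oxidative phosphorylation median was -0.11 without worker 4 and -0.39 without worker 1, and the mitochondrial ribosomal median -0.01 and -0.30 in the same order. The proteasome median was -0.10 without dueler 3 and -0.26 without worker 1. COX7C, a subunit of cytochrome c oxidase, was at 11.1 to 21.3 FPKM in duelers and 15.8 to 32.1 FPKM in workers (-0.46, SE 0.24, adjusted p = 0.761), and ND-B17.2, a subunit of complex I, at 14.6 to 33.1 FPKM and 21.1 to 47.5 FPKM (-0.45, SE 0.25). SdhA, the flavoprotein subunit of succinate dehydrogenase, went the other way, at 9.01 to 11.96 FPKM in duelers and 7.03 to 11.03 FPKM in workers (0.25, SE 0.12, adjusted p = 0.761). Glycolysis and trehalose genes did not lean lower, with a median of 0.05, 7 of 13 means higher in duelers and 0 calls. Chaperone genes had a median of 0.12, with 9 of 10 means higher in duelers and 0 calls. Hsc70Cb was at 15.6 to 25.1 FPKM in duelers and 13.4 to 19.3 FPKM in workers, Droj2 at 84.4 to 94.2 FPKM and 69.6 to 85.9 FPKM, and Hsc70-4 at 202 to 269 FPKM and 159 to 251 FPKM.

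**Figure D3:**
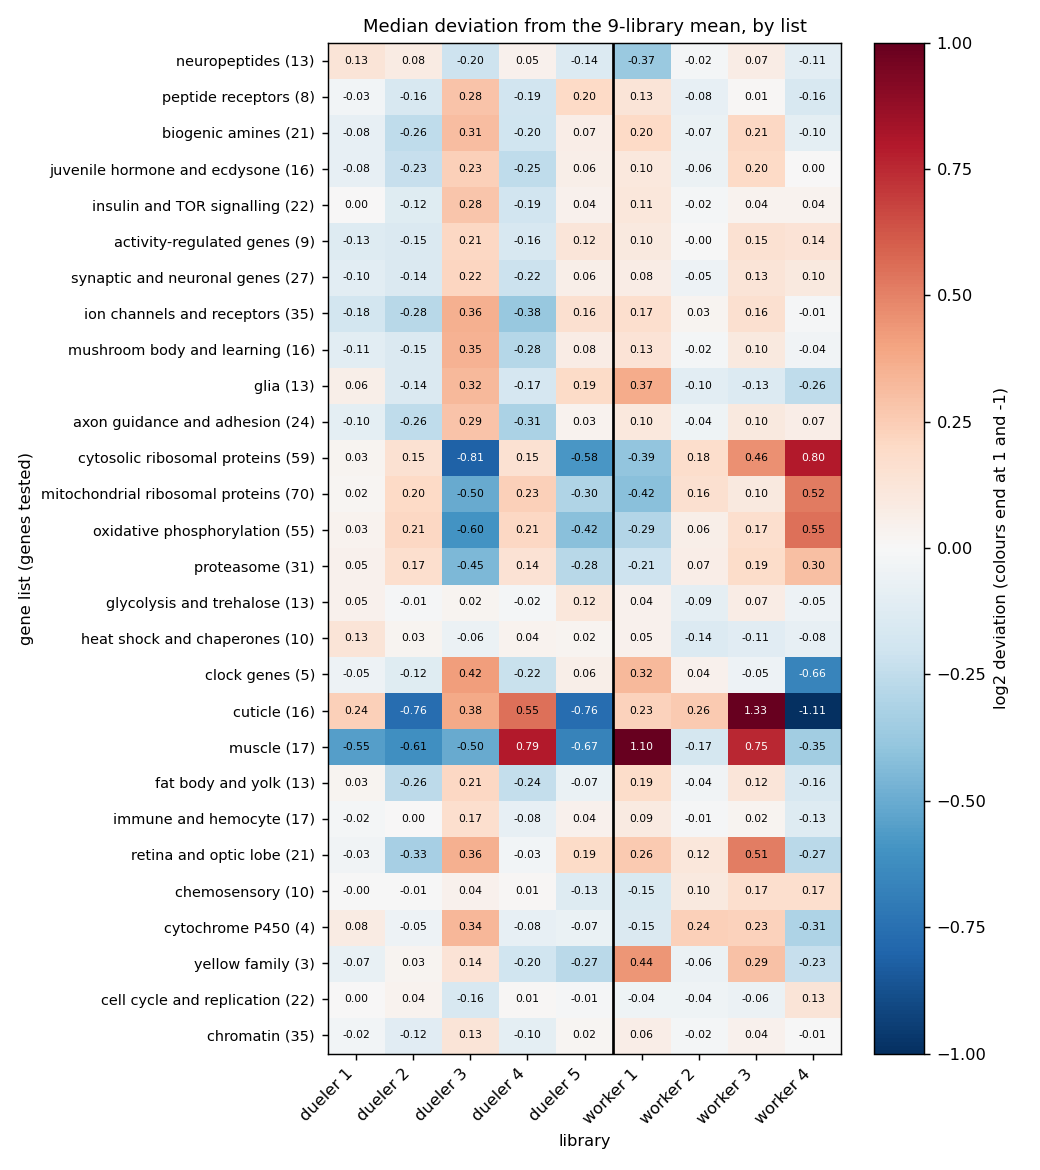
Median deviation of each gene list from the mean of the 9 libraries, in log2 units, with the number of genes tested in brackets, duelers left of the line and workers right of it. Ribosomal, oxidative phosphorylation and proteasome genes are low in duelers 3 and 5 and worker 1 and highest in worker 4, while channel, axon guidance and learning genes are highest in dueler 3.

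The ribosomal list gave the clearest order of single libraries. Its median deviation from the mean of the 9 libraries was 0.03, 0.15, -0.81, 0.15 and -0.58 in duelers 1 to 5, against -0.39, 0.18, 0.46 and 0.80 in workers 1 to 4. Ion channels ran the opposite way among duelers, at -0.18, -0.28, 0.36, -0.38 and 0.16, against 0.17, 0.03, 0.16 and -0.01 in workers. Dueler 3 was thus lowest in 1 list and highest in the other. Without worker 4 the ribosomal median relative to all genes was -0.31, and without worker 1 it was -0.70.

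Gene length moved with this order. Genes were divided into 3 classes of nearly equal size by counted length, the shortest class was set against the longest, and the difference of their median deviations was 0.06, 0.26, -0.49, 0.27 and -0.26 in duelers 1 to 5, against -0.31, 0.14, 0.07 and 0.27 in workers 1 to 4. Duelers 3 and 5 and worker 1, the 3 libraries low in ribosomal genes, were also the 3 with low short genes. The mean of duelers minus that of workers was -0.08, with overlapping groups (exact two-sided permutation p = 0.698 over 126 arrangements, which allow a p of 0.0159 at the smallest). The part of transcript length or RNA quality in the list values was not tested.

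Single libraries of a caste differed from each other as much as duelers from workers. The median absolute log2 difference per gene between a dueler and a worker was 0.22 over the 20 such pairs (0.15 to 0.45). It was 0.25 over the 10 pairs of duelers (0.11 to 0.40) and 0.23 over the 6 pairs of workers (0.16 to 0.39). The measures of spread did not all point to the same caste. The median SD of a gene, as log2(FPKM + 0.5), was 0.220 in duelers and 0.217 in workers, while 47.3% of genes had the larger SD in duelers, and an SD above 1 was found for 153 genes in duelers and 193 in workers, 104 of them in both.

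The first principal component held 36.9% of the variance between the 9 libraries and mixed the castes (exact two-sided permutation p = 0.556). Its scores were 0.36, -20.9, 36.1, -11.8 and 18.3 in duelers 1 to 5, against 24.1, -7.69, -3.68 and -34.9 in workers 1 to 4. The second component, 24.4%, had its lowest score, -26.7, in dueler 5 and its highest, 30.3, in worker 3 (exact permutation p = 0.190), and component 3, 12.15%, had higher scores in duelers on average (6.99 against -8.74 in workers, exact permutation p = 0.0794). Mean depth was 22.05 M reads in duelers and 19.75 M in workers (exact permutation p = 0.0635). With gene length these were 5 tests of library measures, and their Benjamini-Hochberg adjusted p-values were 0.698 for gene length, 0.198 for depth, and 0.694, 0.317 and 0.198 for the components in order. Within the duelers, replicate 1 was nearest to the rest, with a median absolute difference of 0.11 from the median of the others, and replicate 3 farthest at 0.31. Among workers replicate 2 was nearest, at 0.14, and replicate 1 farthest, at 0.30.

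**Figure D4:**
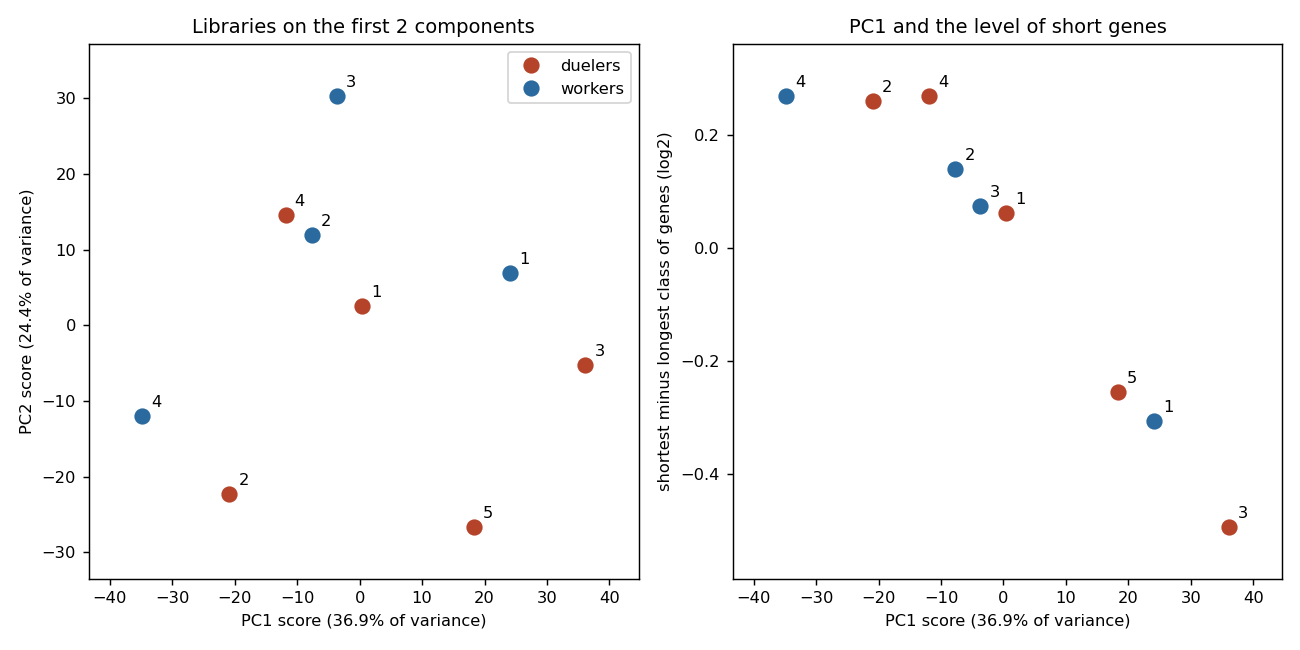
Left, scores of the 9 libraries on the first 2 principal components of log2(FPKM + 0.5), numbered by replicate. Right, the PC1 score against the median deviation of the shortest class of genes minus that of the longest; libraries with high PC1 scores, duelers 3 and 5 and worker 1, have the lowest level of short genes, and castes mix on both axes.

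Genes of neighbouring tissues were among those with the widest spread. Muscle genes were high in dueler 4, worker 1 and, less so, worker 3. Mhc, the myosin heavy chain, was at 2.78, 2.89, 6.09, 58.3 and 3.27 FPKM in duelers, against 80.6, 4.81, 16.5 and 3.95 FPKM in workers. Scp1, a calcium-binding protein of muscle, was at 0.121, 0.434, 0.186, 160 and 0.175 FPKM in duelers, against 88.8, 1.03, 5.57 and 2.502 FPKM in workers. Dueler 4 and worker 1 stood far above every other library in both genes. The light chains Mlc1 and Mlc2 kept this order, with Mlc1 at 303 FPKM in dueler 4 and 191 FPKM in worker 1 and at most 53.8 FPKM elsewhere.

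Of 17 muscle genes tested 0 were called, and 15 had lower means of log2(FPKM + 0.5) in duelers. Mean FPKM was instead higher in duelers for Scp1 (32.1 against 24.5) and Mlc1 (70.1 against 69.2), where dueler 4 was the highest library. The median log2 difference of the list was -0.82. Relative to all genes this median was -0.26 without worker 1 and -1.25 without worker 4. The summed level of the 9 muscle markers with a symbol was 41.9 to 48.5 FPKM in 4 duelers and 476 FPKM in dueler 4, against 356 FPKM in worker 1, 144 FPKM in worker 3, and 62.6 and 55.2 FPKM in workers 2 and 4. So even the lower workers were above 4 of the duelers. TpnT, the troponin T gene, had no overlap, at 2.59, 3.12, 3.15, 2.29 and 2.37 FPKM in duelers, against 3.98, 3.64, 22.7 and 3.26 FPKM in workers, with dueler 4 the lowest library in spite of its other muscle genes (-0.99, SE 0.33, adjusted p = 0.761). TpnC25D, a troponin C gene, was at 0.172 to 0.513 FPKM in duelers and 0.455 to 1.30 FPKM in workers (-0.74, SE 0.26, adjusted p = 0.761).

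Cuticle genes split the libraries in another way. The apidermin gene apd-3l, whose family is known from the honeybee exoskeleton, was at 6731, 16.6, 9347, 9475 and 66.2 FPKM in duelers, against 7267, 8151, 26806 and 111 FPKM in workers. It was 8.19% of all FPKM in worker 3, while duelers 2 and 5 and worker 4 had almost none. Cpr97Ea was at 65.9, 0.782, 69.2, 128 and 0.697 FPKM in duelers, against 35.2, 85.1, 233 and 1.44 FPKM in workers. Cpap3-d, for a protein that binds chitin, and the P450 gene Cyp301a1, which acts in cuticle formation in Drosophila, were low in the same 3 libraries. Cyp301a1 had 0.0724 and 0.197 FPKM in duelers 2 and 5 and 0.0482 FPKM in worker 4, and 0.891 to 8.52 FPKM in the other 6.

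CPR1 did not follow these genes: dueler 2, among the lowest in apd-3l, had the highest CPR1, and worker 3, the highest in apd-3l, had 1.80 FPKM. Of 16 cuticle genes tested 1 was called higher, CPR1 itself, and 0 lower, with a median of -0.46 and 14 means lower in duelers. Relative to all genes this median was -0.16 without worker 3 and -0.78 without worker 4. CPR27 was at 0.122, 0.681, 0.292, 0.532 and 1.02 FPKM in duelers, against 4.27, 0.793, 3.73 and 0.173 FPKM in workers, so workers 1 and 3 carried its difference (-1.06, SE 0.37, adjusted p = 0.761). CPR5 was at 5.37 to 7.40 FPKM in duelers, against 27.7, 7.28, 12.3 and 5.13 FPKM in workers, again highest in workers 1 and 3 (-0.68, SE 0.25, adjusted p = 0.761). Without the 3 libraries with high muscle genes, dueler 4 and workers 1 and 3, the difference of CPR27 turned to 0.056 and that of CPR5 to 0.10. Reads of similar cuticle genes may have been shared in counting.

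Photoreceptor genes divided the libraries differently again. Arr2, an arrestin of photoreceptors, was at 438, 30.6, 397, 632 and 384 FPKM in duelers, against 693, 675, 826 and 6.74 FPKM in workers. Arr1 was at 1.29 FPKM in dueler 2 and 0.606 FPKM in worker 4 and at 48.8 to 107 FPKM in the other 7 libraries, and Gbeta76C, the G protein subunit of the fly eye, at 0.959, 0.95 and 9.78 to 29.6 FPKM in the same order. Dueler 2 and worker 4 thus had little of them beside the other 7 libraries. Per the labels' protocols the optic lobes had been removed from all brains. The opsin gene Lop1 was highest in worker 3, at 69.1 FPKM, with 1.70 to 13.95 FPKM in duelers and 0.207 to 6.17 FPKM in the other workers. The summed retina and optic lobe markers were 44.5 to 738 FPKM in duelers and 12.5 to 1009 FPKM in workers. Of 21 such genes tested 0 were called (median -0.16). Relative to all genes the median was 0.07 without dueler 2 and -0.30 without worker 4, so its direction rested on single libraries.

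**Figure D5:**
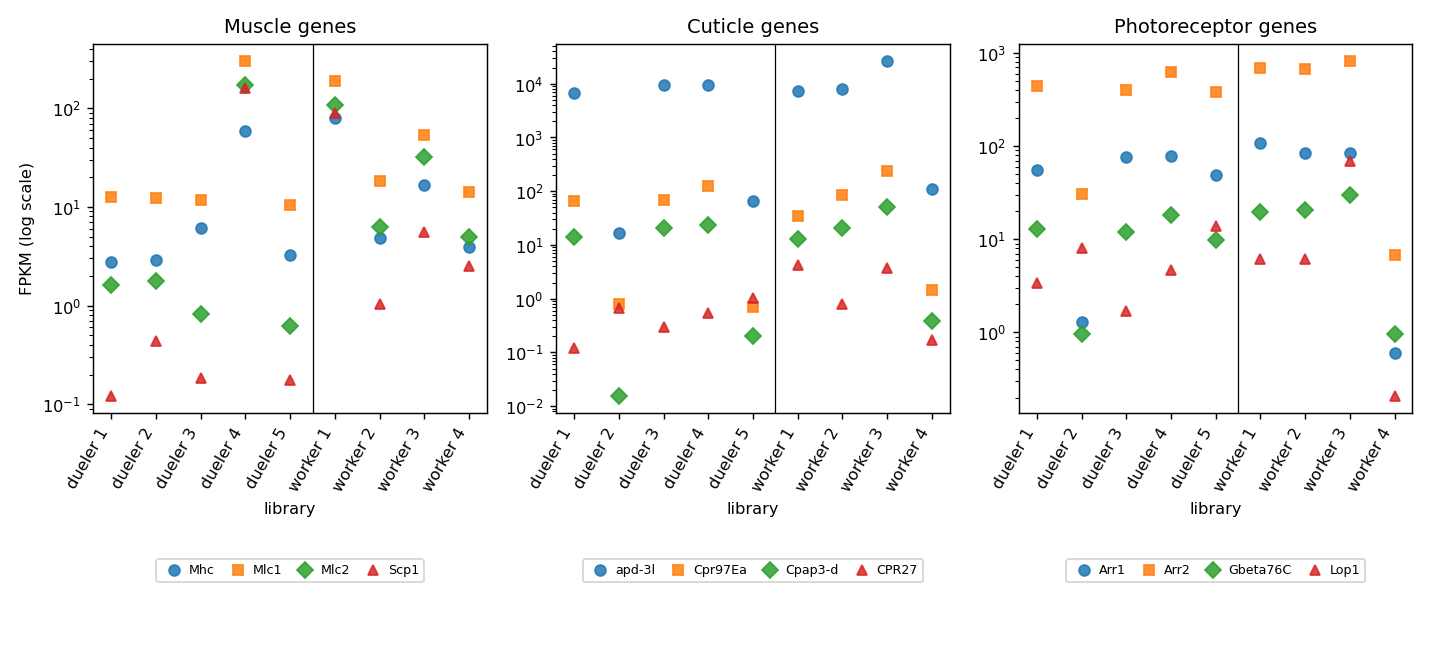
FPKM on a log scale of 4 muscle, 4 cuticle and 4 photoreceptor genes in each library, duelers left of the line and workers right of it. Muscle genes peak in dueler 4 and worker 1, apd-3l, Cpr97Ea and Cpap3-d are lowest in duelers 2 and 5 and worker 4, and Arr1, Arr2 and Gbeta76C are lowest in dueler 2 and worker 4.

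Genes of the muscle, cuticle and fat body lists were among those with large differences of mean log2 level. Of the 64 genes over 2-fold lower in duelers, 52 had an SD above 1 in at least 1 caste, beside 153 of all 9986 genes in duelers and 193 in workers. No overlap was found in 11 of the 64, beside 1.02% of all genes in that direction. A large difference in the same libraries chose these genes, which by itself favours no overlap. The highest of the 9 libraries was worker 3 for 27 genes, worker 4 for 17 and dueler 4 for 9. Only 14 of the 64 have a symbol, and no tissue was assigned to the rest. They were Mlc2, Scp1, TpnCI and Mf of muscle, apd-3l, Cpr97Ea, Cpap3-d, CPR27 and conv of the cuticle list, Hex70a, Hex70c and Vgn of the fat body and yolk list, and Qbp-1 and slf, the last 2 named after their values were seen. Of the 10 genes over 2-fold higher, chosen in the same way, 3 had no overlap, beside 1.48% of all genes in that direction. CPR1 and jhamt were the 2 with a symbol. Vgn, a symbol that the reference does not expand, was at 1.79 to 6.70 FPKM in duelers, against 2.01, 20.7, 40.6 and 7.48 FPKM in workers.

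Clock and glial genes gave 0 calls among 5 and 13 tested. The glial median was 0.08, and relative to all genes 0.24 without worker 1 and 0.01 without dueler 3. Nrx-IV, a septate junction gene of glia, was at 7.54 to 13.5 FPKM in duelers, against 11.5 FPKM in worker 1 and 6.30 to 7.03 FPKM in the other workers (0.37, SE 0.22, adjusted p = 0.761). The glial gene moody went the other way, at 21.1 to 26.5 FPKM in duelers and 27.1 to 36.1 FPKM in workers (-0.30, SE 0.25, adjusted p = 0.772). It was the glial gene with no overlap (1 of 13, against 1.02% of all genes in that direction). Among the 4 P450 genes tested, Cyp304a1 was at 2.28 to 3.36 FPKM in duelers and 1.57 to 2.48 FPKM in workers (0.47, SE 0.23), and Cyp4aa1 at 0.687 to 1.72 FPKM in duelers and 1.41 to 1.98 FPKM in workers (-0.50, SE 0.18), both with adjusted p = 0.761.

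Whether the day 10 difference differs from that of later days was tested as an interaction. No gene passed against day 20 (0%, lowest limma adjusted p = 0.266, 300 genes at unadjusted p under 0.05) or against day 120 (0%, lowest 0.178, 320 genes), and limma-voom on recovered reads also called 0 in both. Array weights called 1 gene against day 20 and 106 against day 120, TPM scaling called 1 against day 120, and leaving out 1 library called at most 1 and 2. The later castes were set apart by 1 gene at day 20 (0.01%) and 6 at day 120 (0.0601%). CPR1 averaged 6.28 ± 3.28 FPKM in day 20 gamergates (SD, n = 5) and 1.83 ± 0.79 FPKM in day 20 workers (n = 4), with overlap (log2 difference 1.41, adjusted p = 1.00), and 1.44 FPKM in day 120 gamergates and 1.20 FPKM in hunting workers (0.37, adjusted p = 0.568). Its day 10 difference exceeded that at day 20 by 1.14 (adjusted p = 0.895) and that at day 120 by 2.18 (0.417).

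LOC105189612 was low later, at a mean of 0.0353 FPKM in day 20 gamergates and 1.07 FPKM in day 20 workers, and at 0 in all 6 day 120 gamergates. The day 20 worker mean came from 1 library at 4.30 FPKM, with the other 3 at 0. LOC105185160 kept its direction at day 20, with 0.160 to 4.66 FPKM in gamergates and 19.1 to 42.8 FPKM in workers (log2 difference -4.51, adjusted p = 0.369). At day 120 it had the opposite sign, with 0.0387 to 147 FPKM in gamergates and 0.0418 to 24.3 FPKM in hunting workers (1.72, adjusted p = 0.367), and the day 10 and day 120 differences were 6.04 apart on the log2 scale (adjusted p = 0.417). Hex70a did likewise, with means of 0.40 FPKM in day 20 gamergates and 2.24 FPKM in day 20 workers, and of 15.1 FPKM in day 120 gamergates and 0.44 FPKM in hunting workers. The ILP-2 difference of 0.75 at day 10 was 1.56 smaller than that at day 20 (adjusted p = 0.895). apd-3l was lower at the later days, at 6.85 to 2953 FPKM in day 20 gamergates and 8.79 to 949 FPKM in day 20 workers and at most 0.72 FPKM at day 120, but age and sequencing run cannot be told apart here.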

How the data were processed

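The deposited table holds FPKM per gene for 14001 genes; the submitters' processing notes name bcl2fastq, STAR and featureCounts, with no version or build given in the sources used here. Libraries were strand-specific, from 600 ng of total RNA, and dissection took away some 95% of the antennal lobes, per the labels' protocols. Symbols came from the RefSeq table of assembly Hsal_v8.6, which matched 13989 identifiers and gave 4117 a symbol. Sequences were not used here.

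Whole reads were recovered from the FPKM steps of 13445 of 13445 genes above 0 (tolerance 0.1 read) to give depth; the authors' divisor lay within 1.22% of median-of-ratios size factors. Intervals for 0 reads cover counting error only.

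The test was limma 3.58.1 (R 4.3.3) on log2(FPKM + 0.5), for 9986 genes with FPKM of at least 1 in at least 4 libraries, with all 37 libraries, 1 mean per group, a run term at day 120, an intensity trend and Benjamini-Hochberg adjustment (two-sided, threshold 0.05). Fold differences on this scale understate changes of low genes. Counts of higher or lower means within a list also refer to this scale and not to mean FPKM. SDs are of FPKM unless stated. The script was tested on simulated data.

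The groups, the 28 lists and the naming rule were chosen with earlier results of these data known. The rule took called genes, up to 12 genes with a symbol per direction with no overlap and at least 2 FPKM, up to 3 per list, some hormone, peptide and activity genes by name, and the 10 most variable genes with a symbol and at least 10 FPKM in each caste. A gene that the rule gave is not reported here.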

Additional observations from a re-analysis of the deposited data

Results flagged for a closer look

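In 22 of 216 checks of a group of libraries for a value far from the others (Dixon's criterion), 1 library stood apart. Chance would give about 1 in 20 such flags for independent checks of values not chosen for their spread. These checks were neither: some genes were named for their wide spread, and several flags repeat the same muscle genes. The count is therefore not to be set against that share. Dueler 4 accounted for 9 of them. It had 58.3 FPKM of Mhc, 303 of Mlc1, 170 of Mlc2, 160 of Scp1, 60.1 of wupA and 108 of Tm2, where the other duelers had at most 6.09, 12.6, 1.77, 0.434, 3.55 and 4.97 FPKM. Its summed muscle markers were 476 FPKM against at most 48.5 in the others, and the median deviation of its muscle list was 0.79 against -0.67 to -0.50. It also had 0.209 FPKM of Hex70a, with at most 0.0521 in the other duelers.

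Among the other duelers, replicate 5 had 8.40 FPKM of LOC112588140 (3.52 to 4.72 in the others) and a chemosensory list deviation of -0.13, and replicate 3 had 88.7 FPKM of orb2 (73.6 to 75.7) and a cell cycle list deviation of -0.16.

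Among workers, replicate 1 had 80.6 FPKM of Mhc, 88.8 of Scp1 and 11.5 of Nrx-IV, where the others had at most 16.5, 5.57 and 7.03 FPKM. Worker 2 had 7.60 FPKM of jhamt, where the others had at most 0.0857. Worker 3 had 22.7 FPKM of TpnT (3.26 to 3.98 in the others), 69.1 of Lop1, 2.48 of Cyp304a1 and, as the lowest, 11.3 of Iru (13.01 to 13.2). Worker 4 had a cell cycle list deviation of 0.13, against -0.06 to -0.04 in the others.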

How the results depend on the processing

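The count of 2 called genes was 1 with an FPKM filter of 5 or TPM scaling, 186 with array weights, 5 with the replicate block, 3 from the day 10 libraries alone, which kept CPR1 and not LOC105189612, 3 with a pseudocount of 1 and 0 in each of the 3 fits that left out libraries standing apart, which were chosen after seeing the data; leaving out 1 library at a time gave 1 to 4. The weights ran from 0.285 in dueler 3 to 5.09 in dueler 1, and the 186 calls were 122 higher and 64 lower in duelers. The labels do not say whether replicate numbers pair the samples, and correlations cannot settle it without the nests. Same-numbered libraries correlated at -0.13 to 0.18 over 4 pairs, and 0 duelers correlated best with their own number. Dueler 5 has no partner in the block, which kept both calls. Interactions with day 20, 0 in the reported fit, numbered 1 with array weights and 0 to 1 when 1 library was left out. Those with day 120, also 0, numbered 1 under TPM, 106 with array weights and 0 to 2. Genes over 2-fold lower, 64, numbered 102 with array weights, 131 without the ends of the first component, 109 without the libraries with high muscle genes, 131 with limma-voom, 110 with a pseudocount of 0.1 and 50 to 112 without single libraries. Genes over 2-fold higher, 10, numbered 60 under TPM, 38 with array weights, 26 without the libraries low in apd-3l, 29 without those with high muscle genes, 42 with limma-voom, 33 and 4 with pseudocounts of 0.1 and 1, and 9 to 21 without single libraries. Of 1090 values of 48 genes under other settings, 1057 kept their direction and side of the threshold, 21 passed it newly, 9 no longer passed it and 3 turned sign: CPR27 (0.056) and CPR5 (0.10) without the libraries with high muscle genes and DopEcR (0.0053) under TPM. Of the list medians under other settings, 600 stayed within 1 SD of the list between dueler libraries and 43 moved beyond it. The cause of these shifts was not tested beyond the scaling itself, which moved all genes. Low reads limit LOC105189612, LOC105191238 and the hexamerins.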
